A study of Mus musculus with 6 samples.

Results

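Open chromatin was described at 44 imprinted genes in mouse spermatogonia, the dividing germ cells from which meiosis starts. The 44 genes were taken from a fixed list of symbols and sorted into 20 imprinted clusters by textbook knowledge. They comprised 36 protein-coding and 8 non-coding genes, set against 21436 protein-coding genes of the same gene table whose 5′ end was known. ATAC-seq was the assay: a transposase, Tn5, cuts exposed DNA and tags it for sequencing. Each of the 6 libraries was made from spermatogonia-enriched testis cells of mice at postnatal day 5, which the study describes as sharing one inbred background. Enrichment relied on plating away somatic cells, and per the study most of the recovered cells carried PLZF, which it showed for wild-type cells. The S7KO group (n = 3) was deficient in the deacetylase SIRT7 through a constitutive knockout and the WT group (n = 3) was wild type. No other treatment was recorded for either genotype. Their titles number the replicates 1, 2 and 4 in each genotype, and these numbers are used below. Testing the relation between SIRT7 and chromatin accessibility was the purpose of the original comparison.

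Imprinted genes are expressed from 1 parental allele because a DNA methylation mark set in the egg or in the sperm survives fertilization. The regions that carry these marks, here called germline methylated regions, often lie at the promoter of a paternally expressed gene when the mark is maternal, and between genes when the mark is paternal. In the male germ line the parental marks are erased in the embryo, and paternal-type methylation is set again in prospermatogonia before birth. Spermatogonia after birth therefore carry sperm-type marks on both copies of a locus. Methylation was not measured here, and the peak lists pool both parental alleles.

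Of the 44 members, 17 are known for a promoter in or beside a germline region methylated in the egg (called the egg-methylated class), 3 hold such a region inside the gene (Grb10, Gnas and Inpp5f), 9 belong to clusters governed by a region methylated in sperm, and 15 are neighbours in these clusters. A promoter peak was a peak with at least 1 bp within 3 kb of the outer annotated 5′ end. Its strength was its rank by q-value within its own list, in percent of the list, with 0 the strongest. Ranks were used because fold and q-values of different lists rest on different depths, but a rank in percent still depends on the length of its list. The lists held 105728 to 133663 peaks, with WT replicate 2 the shortest, and the number of reads behind them was not given in the sources used here. The median rank of coding promoters was 9.77% in WT replicate 2 and 7.63% in WT replicate 4, the longest list. Promoter peaks were present in all 6 libraries at 8 of 8 markers of undifferentiated spermatogonia and 4 of 4 each of germ cell and differentiating spermatogonia markers, but also at 6 of 6 Sertoli, 5 of 6 Leydig, 4 of 4 myoid and 2 of 3 endothelial cell markers. At macrophage markers the number was 1 of 3, with Ptprc and Adgre1 at 0 in every library. The part of somatic cells in the peaks described here was not tested, and an open site in a share of the cells cannot be told apart from a weakly open site in all of them. The knocked-out gene, Sirt7, kept a promoter peak in all 6 libraries, at rank 7.75% to 17.8% in S7KO and 5.62% to 12.5% in WT. Such a peak says nothing on whether the deleted part was missing.

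Imprinted promoters were either open in all libraries or closed in all of them. A promoter peak was found at 37 of 44 members (84.1%) in each of the 6 libraries, and it was the same 37 members every time. The other 7 members had no promoter peak in any library, and none was intermediate. Of the protein-coding genes, 74.0% had a promoter peak in all 6 libraries, 21.8% in none and 4.24% in some. By biotype the members open in all 6 were 32 of 36 coding genes and 5 of 8 non-coding genes. The lncRNA genes of the table (n = 11379) were open in all 6 at 55.2%. The 7 closed members were Snrpn, Ddc, Dlk1, Meg3, Rtl1, Rian and Mirg, and 5 of them belong to the Dlk1-Meg3 cluster.

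**Figure D1:**
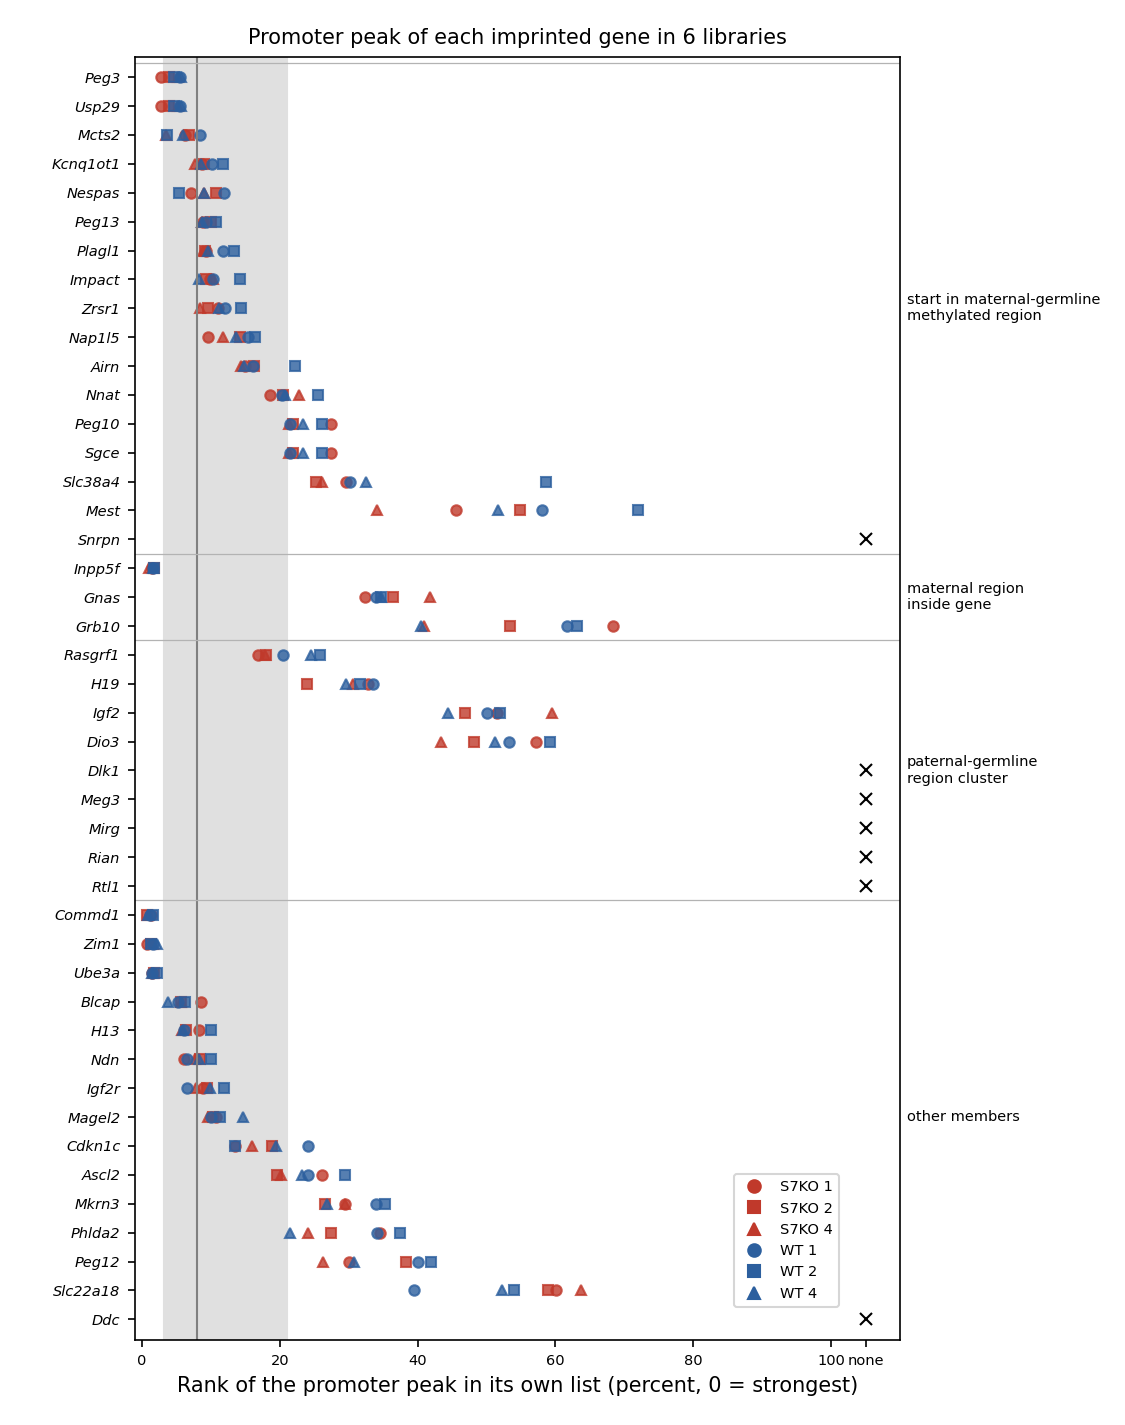
Rank of the promoter peak (percent of its own list, 0 = strongest) of each of the 44 imprinted genes, grouped by class, in S7KO (red) and WT (blue) libraries with replicate 1 as circles, 2 as squares and 4 as triangles; crosses mark genes without a promoter peak in any library. The grey line and band give the median (8.05%) and quartiles (3.21% to 21.1%) of protein-coding promoters open in all 6 libraries, and the 7 crosses include 5 genes of the Dlk1-Meg3 cluster.

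Open imprinted promoters had weaker and wider peaks than the usual coding promoter. Their median rank was 14.0%, against 8.05% for the 15863 protein-coding promoters open in all 6 libraries. The strongest 10% of a list held 15 of 37 members (40.5%) and 8906 of these coding promoters (56.1%). Median fold enrichment over local background was 3.82 for the members and 4.85 for coding promoters. The median width was 1891.5 bp for the members and 1402.5 bp for coding promoters, whose quartiles were 1107.5 and 1813.5 bp. Peaks of at least 2000 bp lay at 18 of 37 members (48.6%) and at 17.9% of coding promoters. These values describe the list and carry no test.

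Wide promoter peaks occurred in every class. In the egg-methylated class 10 of 16 (62.5%) had a peak of at least 2000 bp, with a median of 2134.75 bp. Genes were counted, not peaks. Peg3 and Usp29 share a peak of 3170 bp, and Peg10 and Sgce share a peak of 2731 bp. Separate wide peaks are thus fewer, in this class and over all members. The genes with an internal egg-methylated region had a median width of 3070.5 bp, with 2 of 3 at 2000 bp or more, and the sperm-methylated clusters 1747.25 bp, with 2 of 4. The cluster neighbours had the lowest median, 1623 bp, with 4 of 14 at 2000 bp or more. The difference between the classes was not tested.

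**Figure D2:**
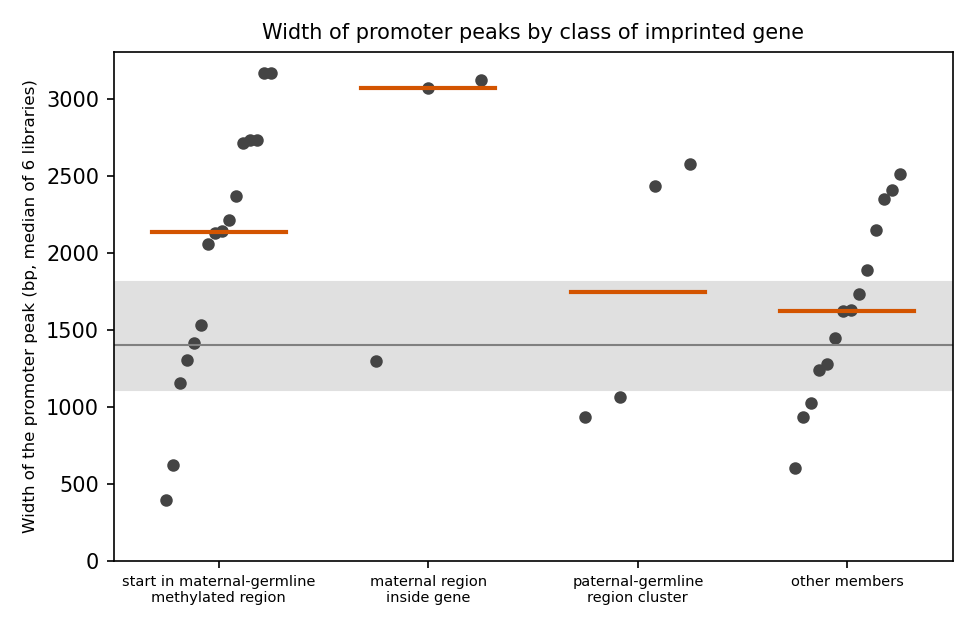
Width of the promoter peak in bp (median of 6 libraries) for each imprinted gene open in all 6 libraries, by class; points are genes, orange bars are class medians, and the grey line and band are the median (1402.5 bp) and quartiles of coding promoters. Peg3 and Usp29 share the widest peak of the egg-methylated class (3170 bp), and the narrowest point there is the best peak within 3 kb of the outer Mest start (396.5 bp).

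The sequences before 5 starts are shown because 3 belong to open imprinted promoters and 2 to closed ones, with overlapping CpG content. Each runs 5′ to 3′ on the gene's own strand over the 250 bases before the annotated start (RefSeq, GRCm38.p6), with the hexamer TGCCGC on either strand in capitals. TGCCGC is the core that the imprint-protecting zinc finger protein ZFP57 binds when methylated. The promoters lie at chr6:30737800-30738049 (Mest, plus strand), chr2:152686898-152687147 (Mcts2, plus strand), chr7:6730420-6730669 (Peg3, minus strand), chr12:109540746-109540995 (Meg3, plus strand) and chr12:109452573-109452822 (Dlk1, plus strand).
Mest, inner start: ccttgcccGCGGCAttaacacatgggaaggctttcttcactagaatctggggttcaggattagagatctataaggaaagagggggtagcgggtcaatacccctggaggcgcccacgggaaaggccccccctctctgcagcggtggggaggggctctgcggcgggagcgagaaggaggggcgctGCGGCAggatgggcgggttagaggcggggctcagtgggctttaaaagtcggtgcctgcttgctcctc
Mcts2: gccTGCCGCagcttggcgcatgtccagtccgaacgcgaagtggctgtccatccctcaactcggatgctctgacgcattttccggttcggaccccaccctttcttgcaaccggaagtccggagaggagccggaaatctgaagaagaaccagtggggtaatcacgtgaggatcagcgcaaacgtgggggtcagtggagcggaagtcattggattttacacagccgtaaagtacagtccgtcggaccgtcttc
Peg3: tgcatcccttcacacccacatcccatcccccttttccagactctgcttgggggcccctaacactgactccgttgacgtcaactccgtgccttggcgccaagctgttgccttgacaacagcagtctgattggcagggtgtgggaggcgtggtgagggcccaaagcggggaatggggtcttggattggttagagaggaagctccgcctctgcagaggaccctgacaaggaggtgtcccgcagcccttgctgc
Meg3, outer start: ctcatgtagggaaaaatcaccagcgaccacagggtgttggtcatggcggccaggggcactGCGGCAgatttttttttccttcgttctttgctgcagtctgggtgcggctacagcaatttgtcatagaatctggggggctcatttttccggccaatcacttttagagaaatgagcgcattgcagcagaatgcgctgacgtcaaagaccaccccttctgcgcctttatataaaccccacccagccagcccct
Dlk1: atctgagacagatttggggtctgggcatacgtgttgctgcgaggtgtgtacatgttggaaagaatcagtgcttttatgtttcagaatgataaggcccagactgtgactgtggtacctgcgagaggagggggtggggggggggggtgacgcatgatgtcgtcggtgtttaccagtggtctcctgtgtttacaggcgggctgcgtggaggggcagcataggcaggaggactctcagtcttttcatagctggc

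Open member starts had more CpG than closed ones on the whole, as coding starts did, but the ranges overlapped. The ratio of observed to expected CpG, where 1 means no CpG loss, was 0.608 at the inner Mest start, 0.979 at Mcts2 and 0.351 at Peg3, all open in 6 libraries. It was 0.584 at the outer Meg3 start and 0.501 at Dlk1, both closed in 6. The Meg3 value lay above that of 54.0% of protein-coding promoters. Over all annotated starts of protein-coding genes the median ratio was 0.676 where a peak lay within 3 kb in all 6 libraries (15797 starts) and 0.136 where none did (4496 starts). Among members it was 0.631 over 41 open starts and 0.286 over 12 closed starts. The hexamer occurred before 7 of 53 member starts (13.2%) and 10.2% of 21262 coding starts, and before 5 of 19 starts of the egg-methylated class. Several of these 53 starts belong to the same gene, and 8 members had no sequence in the table: H19, Cdkn1c, Peg10, Sgce, Rtl1, Peg13, Impact and Nespas.

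In the egg-methylated class, which holds paternally expressed genes, 16 of 17 members were open at the outer annotated start, with a median rank of 10.6%. The other was Snrpn, whose innermost start was open in all 6 libraries as described further on. Peg3, a zinc finger gene, and the deubiquitinase gene Usp29 start back to back and shared 1 peak. Its rank was 2.71%, 3.92% and 5.17% in S7KO replicates 1, 2 and 4 and 5.47%, 4.63% and 5.75% in WT. The values of the genotypes overlapped (exact permutation p = 0.2, two-sided). The median fold enrichment of this peak was 2.95, below the coding median of 4.85, and its width was 3170 bp.

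Mcts2, a retrogene lying within an intron of H13, had a median rank of 6.08%, and its host H13, a signal peptide peptidase gene, 6.29%. Of the long non-coding RNA genes in this class, Kcnq1ot1 (8.86%), Nespas (9.04%) and Peg13 (9.13%) had like median ranks, and Airn had 15.6%. The antisense transcripts Kcnq1ot1 and Airn silence neighbours in cis on the paternal chromosome of other tissues. Igf2r, the receptor that clears IGF2 and the gene Airn overlaps, was open at its own start as well, at 9.19%. Kcnq1ot1's neighbours were open in all 6 libraries too, from Cdkn1c, which encodes the cell cycle inhibitor p57 (17.4%), and Ascl2, a trophoblast transcription factor (23.6%), to Phlda2 (30.7%) and Slc22a18 (56.5%).

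The retrogenes Zrsr1 (11.1%) and Nap1l5 (14.0%), the transcription factor gene Plagl1 (9.43%) and Impact (10.1%) lay between the quartiles of coding promoters. Nnat, which encodes neuronatin, was weaker at 20.6%, and Peg10 and Sgce shared 1 peak of 2731 bp at 22.6%. Slc38a4, an amino acid transporter gene, followed at 29.9%. Its annotated inner starts, up to 35597 bp downstream of the outer one, had no peak within 3 kb in any library. The Impact peak was 623 bp wide (median) and lay 963 bp from the outer start. A region of 2710 bp (chr18:12972048-12974757), 17358 bp downstream of that start, was called in all 6 libraries at 8.22% to 13.4%. Which of these sites of Impact belongs to the egg-methylated region was not examined.

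At Mest and Snrpn the outer annotated start is not the one in the egg-methylated region. The best peak within 3 kb of the outer Mest start was narrow, with a median rank of 53.3%. It lay 1839 to 1955 bp from that start in the S7KO libraries and WT replicate 4. In WT replicates 1 and 2 the best peak was another one, 0 and 27 bp from the start. A region of 904 bp at the outer start (chr6:30732716-30733619) was called in all 6 libraries. At the inner start, 4544 bp downstream, a region of 2803 bp (chr6:30736801-30739603) was called in every library at ranks of 40.5% to 53.5%. The Snrpn gene, for a spliceosomal protein, spans 467683 bp in the table, and its 3 outer starts had no peak within 3 kb in any library. The innermost start, 444978 bp from the outermost, had peaks within 3 kb in all 6 libraries, with a median rank of 22.4%. These were regions of 2287 bp (chr7:60002949-60005235) and 756 bp (chr7:60006049-60006804). Over the 439 kb between that start and the outermost one, leaving 3 kb at each end, S7KO libraries held 1, 0 and 2 peaks and WT libraries 2, 0 and 1. With any annotated start allowed, an alternative chosen after the values were seen, 38 of 44 members were open in all 6 libraries, against 75.6% of coding genes.

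Where the egg-methylated region lies inside the gene, both the start and internal sites were open. Inpp5f, an inositol phosphatase gene, had a strong outer promoter with ranks of 1.09% to 1.73%. Of its internal regions the strongest (chr7:128687593-128688779), 76412 bp downstream, was called in all 6 libraries at 3.94% to 8.42%. Grb10, a growth factor receptor adaptor gene, had a broad and weak peak at its outer start (median rank 57.5%, width 3070.5 bp). Its internal region 10451 bp downstream (chr11:12025381-12026977) ranked higher in every library, at 6.22% to 12.4%. Gnas, the gene of the stimulatory G protein subunit, had a rank of 34.6% at its outer start and 31.5% at its inner starts, at least 43429 bp away. Ddc, the dopa decarboxylase gene beside Grb10, had no peak at either annotated start in any library, but its window of 104 kb held a median of 14 peaks covering 11.9% of its length. The gene body of Ddc was thus open where its promoter was not.

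The Dlk1-Meg3 cluster held the only members whose windows had no peak in any library. The windows of Dlk1, a Notch-related membrane protein gene, of the non-coding RNA genes Meg3 and Rian, and of the retrotransposon-derived Rtl1 (each gene with 10 kb on both sides) held 0 peaks in all 6 libraries. Mirg, a microRNA host RNA, had 1 peak per library in its window. That peak lay 86 bp beyond the end of the gene, at chr12:109749544-109750347, with ranks of 9.43% to 20.4%. The interval of 77.7 kb between Dlk1 and Meg3, where the sperm-methylated control region of the cluster is known to lie, held 0 peaks in every library.

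The stretch without any peak ran over 389 kb (chr12:109360493-109749543) and held 5 members. Peaks were called from uniquely mapped reads only, and how much of this stretch such reads can cover was not tested. Its left edge was a region 92.0 kb before Dlk1, called in all 6 libraries at ranks of 18.2% to 33.0%. The median gap between neighbouring regions of the genome was 6.855 kb. Of 158704 such gaps, 194 (0.122%) were at least as long as the one at Dlk1-Meg3, and 117 of those contained at least 1 whole protein-coding gene. Windows without any peak were also found for 13.7% of protein-coding genes, against 4 of 44 members (9.09%). Dio3, the thyroid hormone inactivating deiodinase gene at the far end of the cluster, was open in all 6 libraries at ranks of 43.5% to 59.2%. The width of its best peak had a median of 2434 bp but varied between libraries. It ran from 748 bp in S7KO replicate 1, where that peak lay 1182 bp from the start, to 4659 bp in WT replicate 1.

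**Figure D3:**
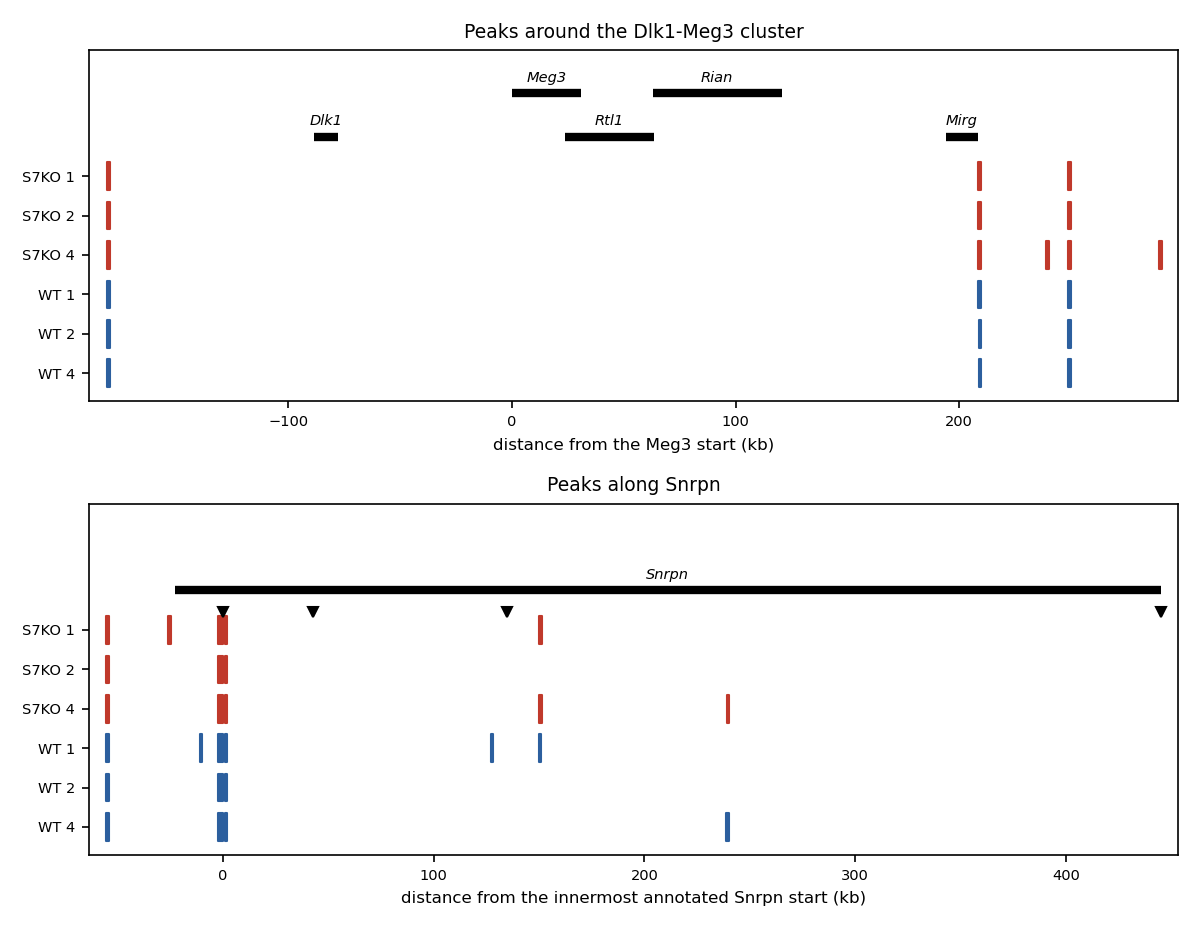
Peaks of the 6 libraries (red, S7KO; blue, WT) around the Dlk1-Meg3 cluster and along Snrpn, against distance in kb from the start of Meg3 and from the innermost Snrpn start; black bars are annotated genes, triangles are annotated Snrpn starts, and narrow peaks are drawn at a minimum width of 1.2 kb. No library had a peak over the 389 kb that hold Dlk1, Meg3, Rtl1, Rian and Mirg, and at Snrpn all 6 libraries had peaks at the innermost start.

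The other sperm-methylated loci were open near their control regions. At H19, a non-coding RNA gene, a peak covered the start in every library at ranks of 24.0% to 33.6%. In the 5 kb upstream of H19, which takes in part of its sperm-methylated control region, a second region of 720 bp (chr7:142580107-142580826) lay 1960 bp from the gene and was called in all 6 libraries. Its ranks were 64.8%, 47.0% and 35.2% in S7KO replicates 1, 2 and 4 and 76.7%, 51.4% and 30.1% in WT, and the genotypes overlapped. A further region of 335 bp was called only in S7KO replicate 4 and WT replicate 4. Igf2, the fetal growth factor gene, had its best promoter peak 1990 bp from the outer start, with a median rank of 50.8%. Peaks covered the innermost Igf2 start (chr7:142657496) in 6 libraries and the next one in 5.

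Rasgrf1, a gene for a Ras exchange factor, was open at its start, and the 40 kb upstream, which hold its sperm-methylated region, contained 3 further regions called in all 6 libraries. The farthest of them (chr9:89874264-89875021), 34486 bp upstream, ranked at 7.65% to 16.7%. The resolution of broad peak calls does not show whether the methylated bases themselves were accessible.

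The 4 strongest promoters of the list belonged to genes whose outer start is not in a germline methylated region. Further down the classes were alike. By median rank, the strongest 10% held 7 of 16 open members of the egg-methylated class and 7 of 14 cluster neighbours. It also held 1 of 3 genes with an internal region and 0 of 4 open members of the sperm-methylated clusters. Commd1, the copper metabolism gene that hosts Zrsr1, led with ranks of 0.802% to 1.66% and a fold of 7.53, its peak lying 1888.5 bp (median) from the outer start. The peak covered an annotated inner Commd1 start, 2255 bp downstream of the outer one, in all 6 libraries. Zim1, a zinc finger gene beside Peg3, followed at 0.789% to 2.21%. The ubiquitin ligase gene Ube3a had ranks of 1.44% to 2.26%, and Inpp5f came next. These 4 lay within the strongest 3% of every list, and none of the 6 libraries stood apart. After the shared Peg3 and Usp29 peak came Blcap (5.68%), Mcts2, H13 and Ndn, the necdin gene. In the Snrpn-Ube3a cluster the weaker promoters were Magel2 (10.5%), the makorin gene Mkrn3 (29.5%) and Peg12 (34.5%).

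Between the genotypes, no imprinted promoter peak was gained or lost. Members with a promoter peak numbered 37 in each S7KO and each WT library, so the difference of means was 0. A promoter peak in 3 libraries of one genotype and none of the other was seen at 0 of 44 members in either direction, and at 0.028% of coding genes for S7KO and 0.0% for WT. Smaller differences were read from the covered length of each gene window and from the rank of the promoter peak. A member was called when all 3 libraries of one genotype lay above all 3 of the other. The exact two-sided permutation p of such a call is 0.1, the smallest that 3 against 3 libraries allow, so that no single gene can pass 0.05.

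The length covered by peaks was higher in every S7KO library at 3 of 44 members (6.82%), against a background of 6.35% of protein-coding windows. No member was higher in every WT library (background 0.508%). The share of members was near the background in both directions. Without WT replicate 2, the shortest list, the calls were 4 members higher in S7KO and 3 in WT, with backgrounds of 6.93% and 6.79%.

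At Usp29 the covered length of a 257 kb window was 21.7, 21.8 and 22.0 kb in S7KO replicates 1, 2 and 4 and 20.5, 19.6 and 19.1 kb in WT. All 3 S7KO values lay above the WT values, by 2.07 kb on average (21.8 ± 0.194 against 19.8 ± 0.685 kb, SD, n = 3 each, exact permutation p = 0.1). This call was also made with no flank, with 5 kb flanks, with stronger peaks only and with lists of equal length.

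Phlda2, which restricts placental growth, had 4.52, 3.90 and 4.18 kb in S7KO and 3.57, 3.08 and 3.58 kb in WT (difference 0.788 kb, exact permutation p = 0.1). Commd1 had 9.02, 8.30 and 9.17 kb in S7KO and 7.83, 6.38 and 8.29 kb in WT (difference 1.33 kb, exact permutation p = 0.1). Neither call was made under any of those 4 settings, and at Commd1 the closest libraries of the genotypes, S7KO replicate 2 and WT replicate 4, nearly touched.

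The promoter peak ranked higher in its list in every S7KO library at 4 of 37 members (10.8%), against 5.22% of 15863 coding promoters. It ranked higher in every WT library at 1 member (2.70%, background 1.24%). With lists of equal length the calls were 4 members in S7KO and 3 in WT, with backgrounds of 3.05% and 4.12%. WT replicate 2, the shortest list, had the weakest rank at each of the 4 members stronger in S7KO. Rasgrf1 was one of the 4, with ranks of 16.8%, 18.1% and 17.8% in S7KO replicates 1, 2 and 4 and 20.4%, 25.9% and 24.5% in WT. The nearest libraries of the genotypes were at 18.1% and 20.4%. That gap was wider than the spread within S7KO but narrower than the spread within WT (17.6 ± 0.692 against 23.6 ± 2.86%, SD, n = 3 each, exact permutation p = 0.1).

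Plagl1 had ranks of 9.26%, 9.15% and 8.94% in S7KO and 11.7%, 13.3% and 9.60% in WT. Zrsr1 had 11.0%, 9.64% and 8.46% in S7KO and 12.0%, 14.3% and 11.2% in WT. At both, the nearest libraries of the genotypes differed by less than 1 point of rank, and the exact permutation p was 0.1 at each. Slc38a4 had 29.6%, 25.2% and 26.2% in S7KO against 30.1%, 58.7% and 32.5% in WT (exact permutation p = 0.1), where most of the mean difference came from WT replicate 2. These 3 genes are of the egg-methylated class and Rasgrf1 belongs to a sperm-methylated locus. The transporter gene Slc22a18 went the other way, with 60.1%, 59.0% and 63.6% in S7KO and 39.5%, 54.0% and 52.3% in WT (exact permutation p = 0.1). The best peak near its start was not the same one in every library. Its width was 1995, 1856 and 581 bp in S7KO and 272, 359 and 625 bp in WT. It lay 0, 0 and 1008 bp from the start in S7KO and 1277, 0 and 1010 bp in WT. The Slc22a18 call thus compares unlike peaks. All 4 genes stronger in S7KO were also called with a 1 kb promoter window, with lists of equal length and with any annotated start, and Slc22a18 was called under the last 2 of these.

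**Figure D4:**
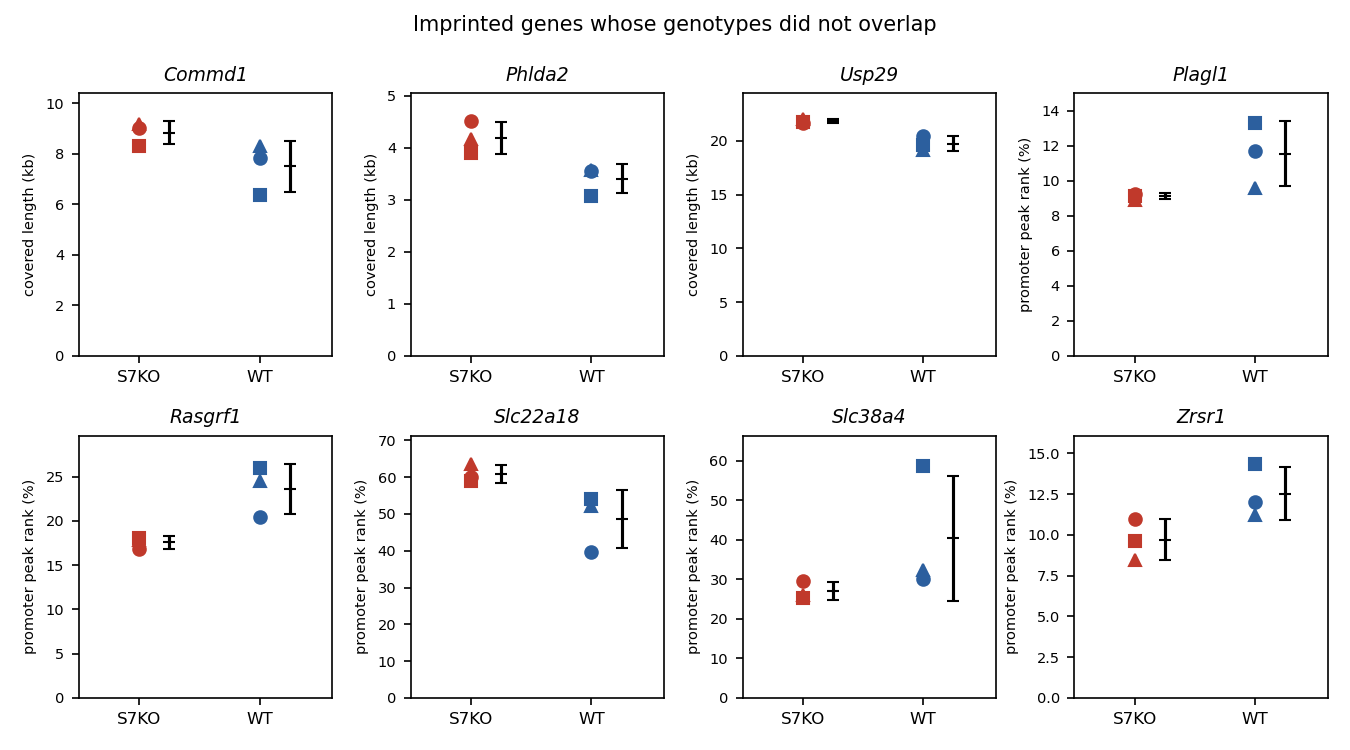
The 8 imprinted genes whose S7KO (red) and WT (blue) libraries did not overlap, as covered length in kb of the gene with 10 kb flanks (Commd1, Phlda2, Usp29) or as rank of the promoter peak in percent of its list (a lower value is a stronger peak); circles, squares and triangles are replicates 1, 2 and 4, and black bars give mean ± SD (n = 3). Usp29 shows the widest clearance in kb of covered length, over the longest of these windows, and WT replicate 2 lies far from the other libraries at Slc38a4. Each panel has its own axis.

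The member windows together covered 2.81 Mb in 32 separate stretches and held 190, 196 and 206 peaks in S7KO replicates 1, 2 and 4 and 179, 173 and 198 in WT. The means were 197 ± 8.08 and 183 ± 13.1 (SD, n = 3 each), a difference of 14.0 that is close to the spread between libraries. As a share of the whole list this was 0.155 ± 0.00284% for S7KO and 0.154 ± 0.00833% for WT, with no excess in either genotype beyond the spread. The median rank over the 37 open members was 11.0%, 14.3% and 11.8% in S7KO replicates 1, 2 and 4 and 15.3%, 14.3% and 14.7% in WT. These medians barely separated, since the closest of them printed alike.

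Merging the peaks of all libraries gave 229 regions in the member windows. Of these, 149 (65.1%) were called in all 6 libraries, against 57.1% of 158725 regions in the genome. Regions called in 3 S7KO and 0 WT libraries numbered 3 (1.31%, background 0.416%), and the reverse was seen 0 times (background 0.0743%). They lay within Ddc (chr11:11849711-11850154), within Igf2r (chr17:12714087-12715324) and downstream of Commd1 (chr11:22898380-22899436). Their ranks in the S7KO lists were 99.8%, 96.3% and 87.0% at Ddc, 95.5%, 96.6% and 96.9% at Igf2r and 89.3%, 86.6% and 81.4% at Commd1. All 3 were thus among the weakest calls of their lists, and with −log10 q of at least 3 no region of this kind was found.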

How the data were processed

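The authors trimmed the reads (Trim Galore 0.6.6), aligned them to mm10 (Bowtie2 2.4.4.1), kept uniquely mapped reads without duplicates, removed mitochondrial reads, shifted the ends for Tn5, selected fragments by length, and ran MACS2 2.2.5 in broad mode on each library (cutoff 0.1). The 6 deposited lists give per peak a display score, a fold enrichment (a ratio to the local background), and p-value and q-value as −log10. These values are the authors'. They were compared between libraries only as ranks within a list. Read counts in peaks were not used here, and the study's DiffBind test was not rerun. Depth is unknown and limits the precision. A count of 0 peaks means only that none was called.

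Peaks on chromosomes 1 to 19, X and Y were read with Python 3.11.15 (pandas 2.3.3, numpy 2.4.6) and joined to a RefSeq gene table and promoter sequences of GRCm38.p6. Strand came from the promoter table (36 members) or GENCODE (8 members). Nespas was matched by synonym. A gene window is the gene with 10 kb on each side, and a peak counted with 1 bp of overlap. Genotypes were compared gene by gene with exact two-sided permutation over the 20 assignments of libraries, and scripts were tested on simulated data. Replicates are libraries labelled as separate, and the study describes its ATAC-seq replicates as biologically independent. That each came from a different mouse is stated for another assay of the study only, so p-values measure the spread between libraries.

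Members and lists were chosen with earlier results of these data known. Named were all members closed in any library, the 10 with the best median rank, every called member, every member with a region of one genotype only, and further members once with their cluster. Of the additional lists only genes with a promoter peak in fewer than 6 libraries were named. Alternatives covered the promoter window, flank, peak threshold, list length, overlap rule, each library left out and a replicate block.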

Additional observations from a re-analysis of the deposited data

How the results depend on the processing

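Of 88 alternative values, 63 stayed within the limits set for the same result and 25 moved. A change of direction could be recorded only for the difference in peaks of the member windows, where none occurred. The other results are counts or a difference of 0, for which no such change was defined. The number of members open in all 6 libraries was 35 with a 1 kb promoter window, which Igf2 and Commd1 did not pass. It was 37 with stronger peaks only, lists of equal length or peak centres. The difference between genotypes in open members stayed 0 under every alternative. Members with more covered length in S7KO numbered 1 with −log10 q of at least 3 (background 5.09%), 1 with lists of equal length (5.6%) and 1 with 5 kb flanks (6.09%), where 1 member (Igf2) was higher in WT (0.644%). With no flank they numbered 3 (5.11%), of which only Usp29 was among the original 3. Members with a stronger rank in WT numbered 0 with a 1 kb window (background 1.23%) and 3 with lists of equal length (4.12%). Regions of S7KO libraries only numbered 0 with −log10 q of at least 3 (background 0.297%) and 0 with lists of equal length (0.231%).

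Leaving out 1 library cannot end a call in covered length or rank and can only add to it, so these ranges show no stability. Members with more covered length ranged from 3 to 10 in S7KO (background 6.93% to 22.6%) and from 0 to 3 in WT (0.952% to 6.79%, with 3 members at 6.79% without WT replicate 2). Members with a stronger rank ranged from 6 to 9 in S7KO (8.21% to 17.9%) and from 1 to 2 in WT (2.12% to 8.3%). The highest S7KO counts, 10 and 9, came without WT replicate 4, where the background was also highest. Regions of S7KO libraries only, which were merged again without the library, ranged from 2 (without S7KO replicate 2, background 0.94%) to 5 (1.09% to 1.87%). The difference in peaks of the member windows ranged from 8.83 to 21.3.

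The library names in the sample descriptions carry other numbers than the titles, but shifted alike in both genotypes, so both give the same number pairs. The deviations from the genotype means over covered lengths correlated at 0.103, −0.184 and 0.457 for numbers 1, 2 and 4. Between libraries of unlike number they correlated at −0.583 to 0.487. With 3 libraries per genotype, such values cannot show whether libraries of like number were prepared together. With a replicate block, in which all 3 number pairs had to differ one way, 8 members had more covered length in S7KO (background 18.5%) and 0 in WT (1.93%), and 14 had a stronger rank in S7KO (16.4%) and 1 in WT (5.47%). Depth limits all counts of absent peaks, and the cause of the moves was not tested.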

Other observations

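A second list of imprinted genes outside the 44 was also mostly open, with few promoters open in some libraries only. Of its 36 genes found in the table, 32 had a promoter peak in all 6 libraries (median rank 16.8%). Closed in every library were Th, which encodes tyrosine hydroxylase, Tfpi2 and Ano1. Ins2, an insulin gene that lies between Th and Igf2, had a promoter peak in 1 library, at rank 84.3%. Covered length was higher in every S7KO library at 5 of these 36 genes (background over protein-coding genes 6.35%) and higher in every WT library at 0 (0.508%). The promoter rank was stronger in every S7KO library at 1 (background 5.22%) and in every WT library at 0 (1.24%).

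Of 19 genes that set, protect or erase imprints, 18 were open in all 6 libraries, with a median rank of 10.6% and a weakest median of 62.9%. The exception was the de novo DNA methyltransferase gene Dnmt3a, with no peak within 3 kb of its outer annotated start in any library. Inner starts of Dnmt3a were not examined here. Against the same backgrounds of 6.35% and 0.508%, covered length was higher in every S7KO library at 3 of the 19 and in every WT library at 0. Against 5.22% and 1.24%, the promoter rank was stronger in every S7KO library at 1 and in every WT library at 0.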
